A study of Homo sapiens with 12 samples.

Results

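FOXM1, the B-MYB gene MYBL2, its relative MYBL1 and the genes of the DREAM complex (LIN9, LIN37, LIN52, LIN54, RBL1 and RBL2) were followed in HuH-7 cells, which come from a human liver cancer and whose genotype is labelled as mutant p53 Y220C. The members are the gene probes that the array design names for these 9 genes, 15 of 41000, and 13 of the 15 were detected well enough to be tested, among 33467 probes tested in all. All 9 genes have at least 1 tested probe. The cells received the solvent DMSO, 28 µM SLMP53-2 or 42 µM SLMP53-2 for 24 h, with 4 biological replicates each, and the doses are 2 and 3 times the IC50. SLMP53-2 was studied as a compound that restores function to mutant p53. The higher dose is 42 µM in the sample titles and 48 µM in other labels of the same arrays, and 42 µM is the name used here. All groups are the same cell line and carry the same p53 mutation, so no group without it takes part in the comparison. RNA was measured on 12 arrays of 1 colour on 5 slides, on which each spot lights up with the labelled copies of its transcript. Between 65.0% and 85.0% of the gene spots of an array stood well above background, and 11 of 11 hepatocyte marker genes were detected on all 12 arrays. Of 6 fibroblast and 5 leukocyte markers, 3 and 4 were detected on all arrays too, and the pan-leukocyte gene PTPRC on none. No marker gene of these 3 lists was called at either dose, and at 42 µM the fibroblast markers differed from DMSO by −0.44 to 0.24 and the 4 leukocyte markers by −1.18 to −0.04 on the log2 scale. The part of these markers in the results below was not tested.

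FOXM1 is a forkhead transcription factor that drives genes needed for mitosis. DREAM is a repressor of cell cycle genes in cells that do not divide. It joins the MuvB core (LIN9, LIN37, LIN52, LIN54 and RBBP4) with a pocket protein, p130 (RBL2) or p107 (RBL1), and with E2F4 or E2F5 bound to a DP partner. In dividing cells the pocket protein leaves, and the same core binds B-MYB (MYBL2) and later FOXM1 and then activates the genes of G2 and mitosis. The gene of p21, CDKN1A, is a p53 target through which p53 can favour the assembly of DREAM, since p21 inhibits the kinases that keep p107 and p130 apart from it. LIN54 is the subunit that touches DNA, at an element called CHR.

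Each probe is a 60-base oligonucleotide, and 4 are shown to let the letters behind the MYBL2, LIN9 and RBL1 values be read and to set an RBL1 probe beside one of its paralogue RBL2. The RBL2 probe printed is the dimmer of its 2, and the within-array comparison below uses the other. Positions are those of the scanner files on hg19. The MYBL2 probe A_23_P143190 lies at chr20:42343796-42343855 on the plus strand. The LIN9 probe A_23_P301995 runs from 226453300 to 226453937 on the minus strand of chromosome 1, a span of 638 bases for 60 probe bases, so that its positions on the genome are split. The RBL1 probe A_23_P28733 lies at chr20:35627197-35627256 on the minus strand and the RBL2 probe A_23_P26413 at chr16:53524115-53524174 on the plus strand. In the last pair the capitals mark the bases that are identical when the probes are set beside each other without gaps, 33 of 57 aligned bases (57.9%), while the MYBL2 and LIN9 probes have no capitals.
MYBL2: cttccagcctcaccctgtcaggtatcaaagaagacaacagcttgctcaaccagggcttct
LIN9: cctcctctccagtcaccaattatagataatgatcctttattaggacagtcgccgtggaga
RBL1: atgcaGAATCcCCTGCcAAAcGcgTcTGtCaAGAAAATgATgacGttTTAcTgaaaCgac
RBL2: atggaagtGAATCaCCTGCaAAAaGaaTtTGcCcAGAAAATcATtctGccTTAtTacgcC

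FOXM1, the member with the largest mean difference at 42 µM, read on its single probe A_23_P151150 (chr12:2967322-2967381, hg19) at log2 levels of 10.93, 10.90, 11.47 and 11.24 on DMSO replicates 1 to 4. At 28 µM the levels were 10.06, 9.99, 10.65 and 11.22, and at 42 µM they were 9.60, 10.02, 10.70 and 10.73. All 4 arrays at 42 µM lay under all 4 DMSO arrays, while at 28 µM replicate 4 stood among the DMSO arrays. The mean was 11.14 ± 0.27 on DMSO (SD, n = 4), and at 28 µM the mean log2 difference from it was −0.66 (SE 0.30, adjusted p = 0.440). At 42 µM it was −0.88 (SE 0.30, 95% interval −1.51 to −0.24, adjusted p = 0.143), a 1.84-fold lower level. These p-values come from limma with Benjamini-Hochberg adjustment over all 33467 probes, and a probe was called when its adjusted p was below 0.05 and its log2 difference at least 0.6 in size. FOXM1 was not called at either dose. In bulk RNA fewer dividing cells and less FOXM1 RNA per dividing cell cannot be told apart, and this holds for every gene below.

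MYBL2, whose product B-MYB joins the MuvB core in S phase, had levels of 9.27, 9.33, 9.95 and 9.84 on DMSO. It read 8.39, 8.86, 9.20 and 9.96 at 28 µM and 7.84, 8.61, 9.20 and 9.33 at 42 µM. The spread within each group was wide, and the groups overlapped: the highest 42 µM array stood at the level of the second lowest DMSO array, and 28 µM replicate 4 above all others. The mean log2 difference at 28 µM was −0.49 (SE 0.35, adjusted p = 0.633 in limma). That at 42 µM was −0.85 (SE 0.35, 95% interval −1.61 to −0.10, adjusted p = 0.248 in limma), and neither was called. Without 42 µM replicate 1, the lowest MYBL2 array, the difference at 42 µM was −0.55.

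LIN9, a MuvB subunit that takes part in binding B-MYB, has 2 probes. The brighter, A_32_P233304 (chr1:226418948-226419007, hg19, minus strand), read 10.40, 10.05, 9.91 and 10.04 on DMSO, 9.90, 9.24, 9.49 and 9.96 at 28 µM and 9.72, 9.14, 9.54 and 9.40 at 42 µM. The 42 µM arrays all lay under the DMSO arrays. The mean log2 difference was −0.65 at 42 µM (SE 0.18, 95% interval −1.04 to −0.27), and its limma adjusted p of 0.0706 was the smallest of any member probe in any comparison. It was called in 5 of 26 alternatives, among them without 28 µM replicate 2 (adjusted p = 0.0471) or without 28 µM replicate 4 (adjusted p = 0.0473). Neither array belongs to the groups compared. Over the 26 alternatives the difference ran from −0.77 to −0.55 and the limma adjusted p from 0.0195 to 0.232. The probe A_23_P301995, whose sequence is printed above, differed by −0.24 at 28 µM and −0.26 at 42 µM (SE 0.17, adjusted p = 0.541 at 42 µM), with groups that overlapped. Both probes leaned the same way, and the difference of the brighter one was over 2 times as large at 42 µM on the log2 scale.

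**Figure D1:**
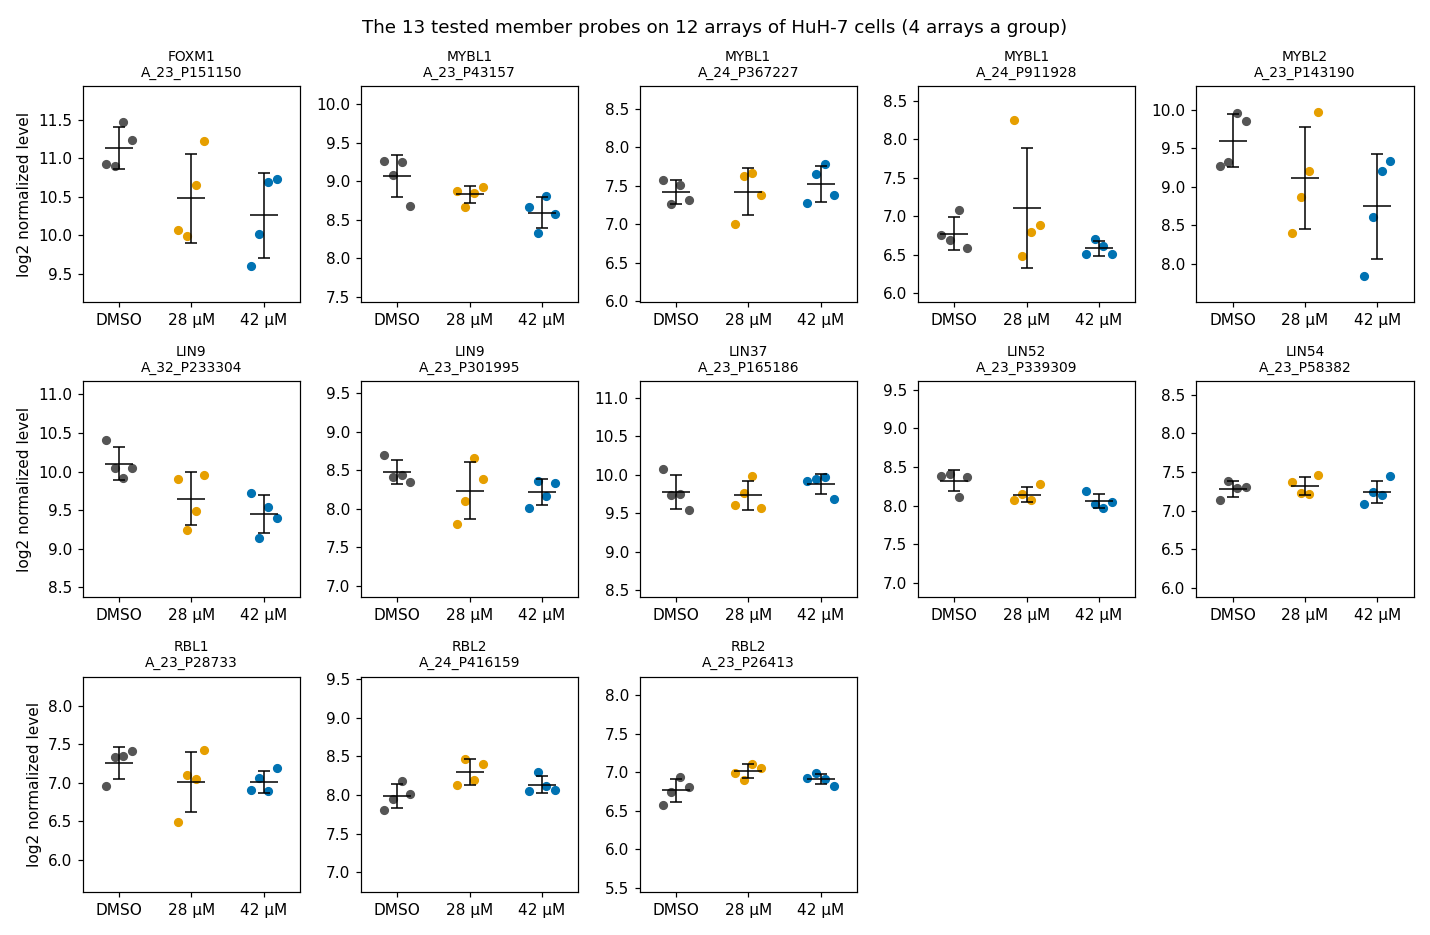
Normalized log2 levels (vertical axes, all of the same length but with different origins) of the 13 tested member probes on each of 12 arrays, by treatment, with points for replicates 1 to 4 from left to right and bars for the mean ± SD. FOXM1 and the LIN9 probe A_32_P233304 have no 42 µM array at the level of a DMSO array, and the other 11 probes overlap.

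The other MuvB genes showed small differences. LIN37, a subunit needed for repression by DREAM, read from 9.54 to 10.08 on DMSO and from 9.69 to 9.97 at 42 µM, with differences of −0.04 and 0.10 at 28 and 42 µM. LIN52, whose phosphorylation by DYRK1A links the core to p107 and p130, had DMSO levels of 8.12 to 8.41. Its levels were 8.07 to 8.28 with 28 µM and 7.97 to 8.19 with 42 µM. Its differences were −0.18 and −0.26 (SE 0.11, 95% interval −0.49 to −0.03 and adjusted p = 0.251 at 42 µM in limma). LIN54 read between 7.09 and 7.46 over all 12 arrays and differed by 0.04 at 28 µM and −0.04 at 42 µM, with a 95% interval of −0.28 to 0.20 at 42 µM. Its interval leaves out the mean FOXM1 difference of −0.88 at 42 µM, but it overlaps the FOXM1 interval of −1.51 to −0.24. Whether the 2 genes changed differently was not tested. RBBP4, the MuvB subunit that is shared with other chromatin complexes and that is not among the 9 members, differed by 0.04 at 42 µM, and by −0.12 with the scanner's processed signal scaled to the 75th percentile.

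The pocket protein genes leaned in opposite directions. RBL1 read 6.95, 7.33, 7.35 and 7.41 on DMSO, 6.49, 7.10, 7.04 and 7.42 at 28 µM and 6.90, 7.06, 6.89 and 7.19 at 42 µM, differences of −0.25 at each dose (SE 0.18, adjusted p = 0.637 and 0.583 in limma). The difference at 28 µM was −0.07 without replicate 1 of that dose, which read lowest. RBL2 read 7.80, 7.94, 8.19 and 8.01 on DMSO, 8.12, 8.47, 8.19 and 8.41 at 28 µM and 8.05, 8.29, 8.12 and 8.07 at 42 µM on its brighter probe A_24_P416159. Its differences were 0.31 at 28 µM (SE 0.12, adjusted p = 0.362 in limma) and 0.15 at 42 µM, and its other probe, A_23_P26413, gave 0.24 and 0.14. No array group of either gene was free of overlap with DMSO, and none of these probes was called. Within each array, the log2 level of the RBL1 probe minus that of the brighter RBL2 probe averaged −0.72 ± 0.14 in the solvent group, −1.28 ± 0.28 with 28 µM and −1.12 ± 0.17 with 42 µM (SD over 4 arrays each). Only the change of this quantity can be read, since levels of different probes are not comparable, and it was −0.56 at 28 µM and −0.40 at 42 µM. At both doses the 4 treated arrays lay under the 4 DMSO arrays, which are the same arrays for both doses. Of single probes, 2.68% lay wholly under DMSO at 28 µM and 6.48% at 42 µM. How often the difference of other gene pairs does so was not tested. A two-sided exact permutation test gave p = 0.0286 at each dose, the smallest that 4 arrays against 4 can give. After adjustment over the 4 paralogue comparisons made, the p of this test was 0.0571. Groups without overlap always give this smallest value, so the test adds nothing to the lack of overlap. Over 13 alternatives the change ran from −0.78 to −0.44 at 28 µM and from −0.67 to −0.36 at 42 µM. A second RBL1 probe, A_24_P276102, which the design assigns to another transcript, was well above background on 0 of 12 arrays.

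MYBL1, the A-MYB gene, has 4 probes, and they disagreed. A_23_P43157 read 9.26, 9.08, 9.26 and 8.68 on DMSO, 8.87, 8.67, 8.85 and 8.93 at 28 µM and 8.67, 8.33, 8.81 and 8.57 at 42 µM. Its differences were −0.24 and −0.47 (SE 0.15, adjusted p = 0.110 at 42 µM in limma). A_24_P367227 differed by 0.00 and 0.11. A_24_P911928 differed by 0.33 and −0.19, and its value at 28 µM rested on replicate 1, which read 8.25 against 6.49 to 6.89 on the other 3 arrays: without that array the difference was −0.05. The last probe, A_24_P308139, was well above background on 0 of 12 arrays. The within-array difference of MYBL2 and the brightest MYBL1 probe changed by −0.25 at 28 µM and −0.38 at 42 µM, with overlapping groups (two-sided exact permutation test, adjusted p = 0.543 for both), so a different change of the paralogues was not shown.

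Over the 13 tested probes, 0 were called at 28 µM, where 0 of 33467 probes (0%) were. At 42 µM 0 members were called too, where 2.64% of all probes were, 1.23% as lower and 1.41% as higher. At that background a count of 0 of 13 says little about the members. The background itself moved: the 885 probes called at 42 µM ranged from 0 (without DMSO replicate 2 or 42 µM replicate 2) to 1221 (without 28 µM replicate 4) when 1 array was left out and came to 1 with the slide as a block, and at 28 µM 719 were called without 28 µM replicate 4. At an unadjusted p under 0.05 in limma, 4 member probes passed at 28 µM, 2 lower (all probes 5.58% lower) and 2 higher (5.46% higher). The lower ones were FOXM1 and A_32_P233304 of LIN9, and the higher ones both probes of RBL2. At 42 µM 5 passed, all lower, where 7.14% of all probes passed as lower and 8.23% as higher. These were FOXM1, MYBL2, LIN52, A_32_P233304 of LIN9 and A_23_P43157 of MYBL1. In 2 of 13 probes the 42 µM and DMSO arrays did not overlap, both lower, where 6.48% of all probes lay so as lower and 5.82% as higher. At 28 µM this held for 0 of 13 (2.68% and 2.69% of all probes). The median difference of the 13 probes was −0.18 at 28 µM and −0.25 at 42 µM. Between 42 and 28 µM, 0 of the 13 were called, as 0 of all probes were. At an unadjusted p under 0.05 it was 0 of 13 too, against 1.39% of all probes lower and 1.05% higher. For FOXM1, MYBL2 and A_32_P233304 the mean levels were ordered DMSO, 28 µM, 42 µM from high to low, and neither step was called. The differences between the doses were −0.22, −0.36 and −0.20, each with a 95% interval that held 0.

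**Figure D2:**
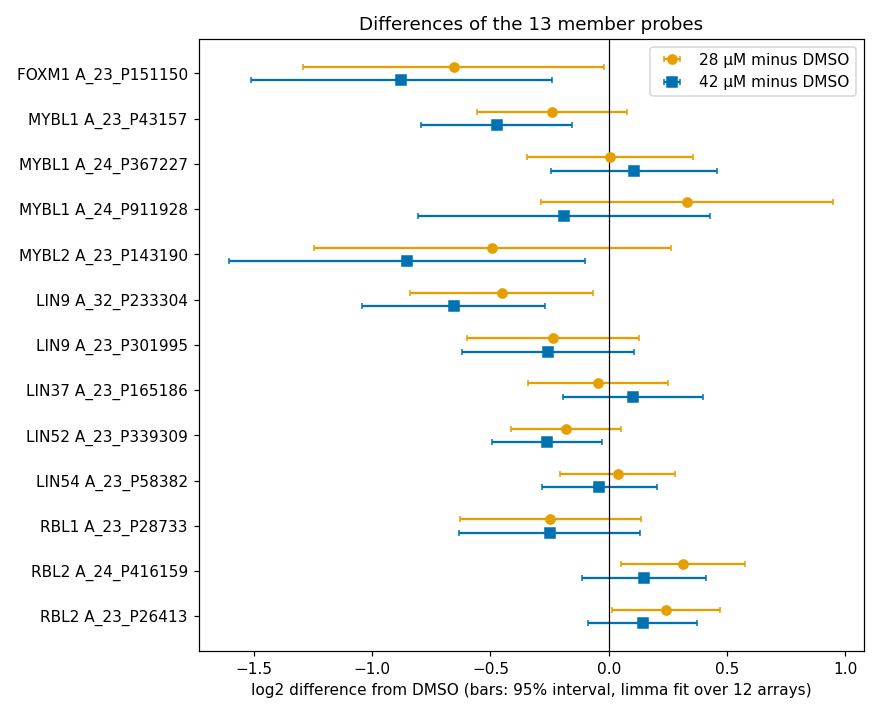
Log2 differences from DMSO (horizontal axis) of the 13 tested member probes at 28 µM (circles) and 42 µM (squares), with bars for the 95% interval of the limma fit over 12 arrays. FOXM1, MYBL1, MYBL2, LIN9 and LIN52 have an interval under 0 at 42 µM on at least 1 probe, and both RBL2 probes one above 0 at 28 µM, and no probe passed the adjusted limit.

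At 28 µM the differences of FOXM1, MYBL2 and LIN9 were larger without replicate 4. Over the 52 G2/M target genes the median deviation from the DMSO mean was 0.06 on this array and −0.76 to −0.93 on the other 3 arrays at 28 µM. FOXM1 stood 0.08 above and MYBL2 0.37 above their DMSO means on it. Without it the differences at 28 µM were −0.90 for FOXM1 (SE 0.27, adjusted p = 0.121), −0.78 for MYBL2 (SE 0.33, adjusted p = 0.272) and −0.56 for A_32_P233304 (SE 0.18, adjusted p = 0.160). None of the 3 was called by limma. This array was singled out after its values were seen, and each difference was smallest without another array of that dose. FOXM1 differed by −0.49 without replicate 2, MYBL2 by −0.25 without replicate 1, and A_32_P233304 by −0.32 without replicate 2. What sets replicate 4 apart was not tested.

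Genes that these factors act on were measured on the same arrays. G2/M target genes are those of mitosis that B-MYB and FOXM1 activate with the MuvB core and that DREAM represses through CHR elements. All 52 of the listed genes were measured, with 1 probe per gene, and 52 of 52 were lower at each dose. The list was chosen with earlier results of these data known, so this shared direction is a description. Over all genes the median difference was −0.02 at each dose. At 28 µM the median difference was −0.58 and 0 were called, with 32 lower at an unadjusted p under 0.05 in limma, against 6.28% of all genes. At 42 µM the median was −1.04 and 35 of 52 fell, against 1.42% of all 24251 genes, and 52 of 52 were lower at an unadjusted p under 0.05, against 7.71%. CENPE, a motor protein of the kinetochore, fell by 1.82 (SE 0.28, adjusted p = 0.0112 in limma), from 11.35 ± 0.12 to 9.53 ± 0.30 (SD, n = 4). DLGAP5, a protein of the mitotic spindle, fell by 1.49 (SE 0.26, adjusted p = 0.0153 in limma). The count of 35 dropped to 0 without DMSO replicate 2, to 0 without 42 µM replicate 2 and to 0 with the slide as a block, and to 18 without DMSO replicate 1, 19 without DMSO replicate 3, 18 without DMSO replicate 4 and 21 without 42 µM replicate 1. CENPE and DLGAP5 also lost their calls in the first 3 of these settings, with adjusted p between 0.0505 and 0.0680. The median stayed between −0.96 and −1.23 in all 26 alternatives. At 28 µM 29 of 52 were called without replicate 4 (55.8%), where 0.986% of all genes were called lower. That array was singled out after the values of this same list were seen, so the count is a description and no support for a change at 28 µM.

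G1/S target genes, which serve DNA replication and are bound by E2F factors with DREAM, had a median of −0.46 at 28 µM and −0.81 at 42 µM. All 32 of 32 were lower at each dose, and this list too was chosen with earlier results of these data known. At 42 µM 15 of 32 fell, where 1.42% of all genes did, and at 28 µM 0 were called, with 16 lower at an unadjusted p under 0.05, against 6.28% of all genes. RRM2, a subunit of ribonucleotide reductase, fell by 1.69 (SE 0.34, adjusted p = 0.0215 in limma), and TK1, thymidine kinase, fell by 1.62 (SE 0.30, adjusted p = 0.0159). The count of 15 became 0 in the same 3 settings as that of the G2/M list. It was 1, 5 and 2 without DMSO replicate 1, 3 or 4, 4 without 42 µM replicate 1, 8 without 28 µM replicate 3, and 5 with a log2 limit of 1. RRM2 lost its call when any single DMSO array was left out, with the slide block, and without replicate 1 or 2 of 42 µM, and TK1 without DMSO replicate 1 or 2, 42 µM replicate 2 and with the slide block. The members themselves, with 1 probe a gene, had medians of −0.24 and −0.26, and 7 of 9 were lower at each dose.

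The partners and relatives of the complex were not called at either dose: 0 of 7 genes passed (RBBP4, E2F4, E2F5, TFDP1, TFDP2, RB1 and MYB). Of all genes 0% were called lower at 28 µM and 1.42% at 42 µM, so a count of 0 of 7 says little. At an unadjusted p under 0.05 in limma 0 passed at 28 µM and 2 of 7 at 42 µM, both lower, where 7.71% of all genes passed as lower. MYB, the founder of the MYB family, differed by −0.66 at 42 µM (SE 0.21, adjusted p = 0.127 in limma) and TFDP1, the DP1 partner of E2F factors, by −0.52 (SE 0.21, adjusted p = 0.240), with TFDP1 arrays that did not overlap DMSO. E2F4, the main E2F of DREAM, differed by 0.07 at each dose, with an SE of 0.41 that was too wide to read a direction. Of 12 kinases, cyclins and regulators, 2 passed as lower and 2 as higher at an unadjusted p under 0.05 in limma at each dose. Of all genes 6.28% passed as lower at 28 µM and 7.71% at 42 µM. As higher, 5.46% of all probes passed at 28 µM and 8.23% at 42 µM. Only 1 of the 12 was called, at 42 µM, where 1.42% of all genes were called lower. This was CCNE1, the cyclin E gene and an E2F target, which fell by 0.86 (SE 0.20, adjusted p = 0.0401 in limma). Its call was lost with the slide as a block, with a log2 limit of 1, and when any single DMSO array was left out, or 28 µM replicate 3, 42 µM replicate 1, 42 µM replicate 2 or 42 µM replicate 3. CDK4, which was chosen after its values were seen, differed by 0.58 at 42 µM (adjusted p = 0.0411 in limma), just under the limit of 0.6. CDK2, chosen in the same way, went the other way, by −0.65 at 42 µM (SE 0.20, adjusted p = 0.107 in limma). Its 42 µM arrays all lay under the DMSO arrays, and it was not called. CDKN1A, the p21 gene, differed by 0.26 and 0.31 (SE 0.11, adjusted p = 0.409 and 0.160 in limma), all 4 arrays of each dose lay above all DMSO arrays, and it was not called. Among all probes, 2.69% lay wholly above DMSO at 28 µM and 5.82% at 42 µM. Wholly under DMSO at 42 µM, as TFDP1 and CDK2 did, lay 6.48% of all probes. DYRK1A, the kinase of LIN52, differed by −0.05 and 0.18 (SE 0.33).

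Array by array, FOXM1 and MYBL2 went along with the G2/M list but did not follow it in size. On 42 µM replicates 1 and 2 FOXM1 deviated from its DMSO mean by −1.54 and −1.12, and the list's median by −1.19 and −1.35. On replicates 3 and 4 FOXM1 deviated by −0.44 and −0.40, and the list's median by −0.86 and −0.82. MYBL2 deviated by −1.76, −0.99, −0.40 and −0.27 on the same 4 arrays, and LIN9 by −0.39, −0.97, −0.56 and −0.71. LIN9 thus had another order over the arrays than the other 2 genes.

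**Figure D3:**
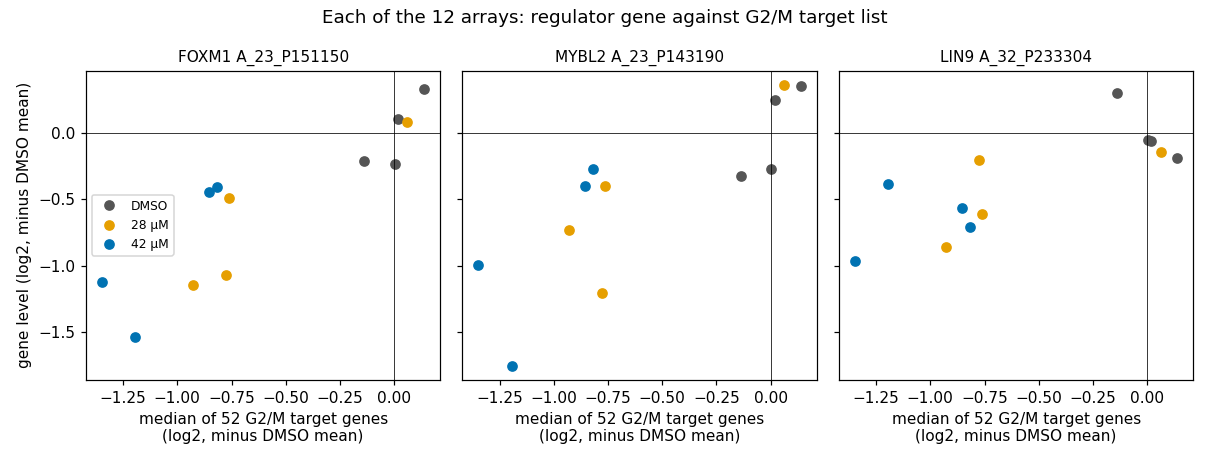
Each point is 1 of 12 arrays, with the median deviation of 52 G2/M target genes from their DMSO means (horizontal axis, log2) and the deviation of FOXM1, MYBL2 or LIN9 probe A_32_P233304 (vertical axis, log2). 28 µM replicate 4 lies with the DMSO arrays in all 3 panels, and FOXM1 and MYBL2 spread over more than 1 log2 unit among the 42 µM arrays.

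FOXM1 and MYBL2 varied together over the arrays. Pearson's r of their levels over 12 arrays was 0.96, and r of their deviations from the group means was 0.96 too. It thus does not rest on the differences between group means alone. An uneven response among the arrays of one dose stays in these deviations, and its part was not tested. These arrays share groups, slides and a normalization, and the values are a description. Among 24208 genes ranked by r, MYBL2 stood in place 11 for FOXM1, and FOXM1 in place 21 for MYBL2. The 5 genes most like FOXM1 were PFKFB3 (0.98), MYH10 (0.98), DCTPP1 (0.98), PEG10 (0.97) and FN3KRP (0.97). Those most like MYBL2 were the probe A_24_P929650, which has no gene name here (0.99), MCM5 (0.99), PEG10 (0.98), MCM2 (0.98) and CENPM (0.98). MCM2 and MCM5 are subunits of the replicative helicase and stand on the list of G1/S targets. Of the other members RBL1 came closest, with r of 0.67 to FOXM1 and 0.75 to MYBL2, and LIN37 had −0.30 and −0.37.

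The slides did not all show the same difference. Each slide holds at most 1 array of a group, so these are single differences with no test. Between 42 µM and DMSO FOXM1 differed by −1.64 on slide 2, −1.46 on slide 4 and −0.21 on slide 5, and MYBL2 by −2.00, −1.34 and −0.12. LIN9 probe A_32_P233304 differed by −0.32, −0.78 and −0.51 on the same slides, and the G2/M median by −1.23, −1.48 and −0.93. All 12 of these differences are negative. Between 28 µM and DMSO FOXM1 differed by −0.28 on slide 1, −1.18 on slide 2 and −0.25 on slide 4, and MYBL2 by −0.07, −1.45 and 0.01. Between 42 and 28 µM the direction turned: FOXM1 differed by −0.47 on slide 2 and −1.21 on slide 4 but by 0.74 on slide 3, and MYBL2 by −0.55, −1.36 and 0.47.

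**Figure D4:**
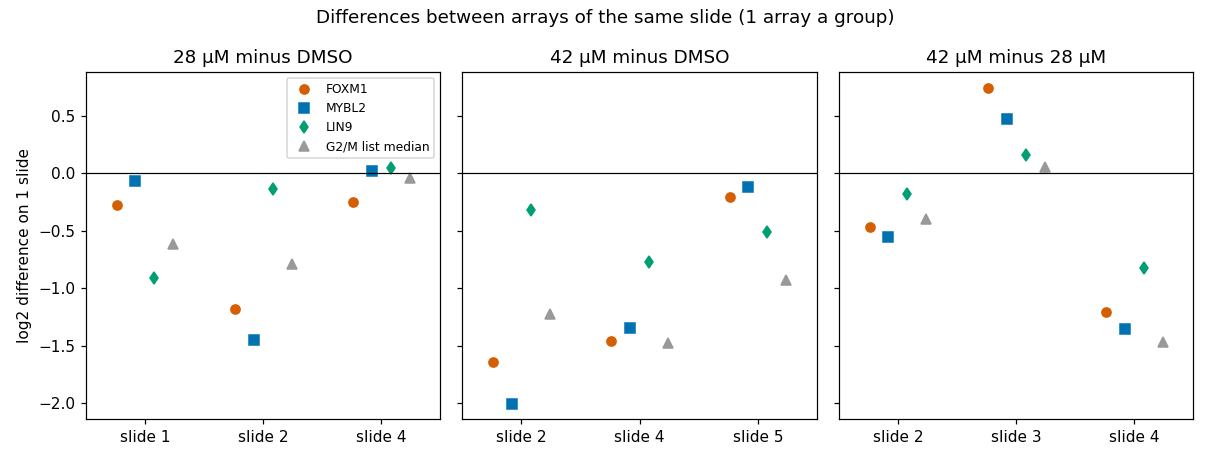
Log2 differences (vertical axis) between 2 arrays of the same slide for FOXM1, MYBL2, LIN9 probe A_32_P233304 and the median of the G2/M list, with 1 panel per comparison and 1 column per slide. FOXM1 and MYBL2 range from −2.00 to −0.12 for 42 µM against DMSO and lie above 0 on slide 3 for 42 µM against 28 µM.

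Promoter sequence of the members was read from a RefSeq table on GRCh38.p14, with 250 bases before and 50 after a start. It holds 12 windows for 7 of the 9 genes and none for FOXM1 and MYBL1. The letters of 5 motifs were searched on both strands. They are CHR (TTTGAA, with the variant TTCGAA), E2F (TTCCCGC, with the variant TTGGCGC), the CCAAT box, MYB (CAACGG, with the variant CAACTG, both also with T in first place) and forkhead (TAAACA). No match overlapped one of another motif in the member windows. A CHR match stood in 5 of the 12 windows, of LIN9, LIN37, LIN54 and RBL2, against 16.4% of all 35116 promoters, and an E2F match in 3 windows, of LIN9, LIN52 and RBL1, against 9.23%. The windows of one gene can overlap. Those of LIN54 do, and their CHR matches, at −100 and −89 from their starts, are the same stretch of the genome. The count of 5 thus holds it more than once. The RBL2 match begins at base 25 after the start. CCAAT letters occur in 34.6%, MYB letters in 25.7% and forkhead letters in 12.3% of all promoters. The MYBL2 window holds none of these letters. LIN9 is shown as the MuvB gene with the largest mean difference at 42 µM, over 275 bases of the minus strand at chr1:226309140-226309414, with its CHR matches in capitals, which begin 60 and 3 bases before the start. RBL1 is shown as the pocket protein gene that leaned down, at chr20:37095973-37096247 on the minus strand, with its E2F match in capitals, 15 bases before the start. Each ends 25 bases after the start. The other LIN9 windows hold no CHR match. A match describes letters and not binding, and a missing match does not show that a site is absent.
LIN9 promoter: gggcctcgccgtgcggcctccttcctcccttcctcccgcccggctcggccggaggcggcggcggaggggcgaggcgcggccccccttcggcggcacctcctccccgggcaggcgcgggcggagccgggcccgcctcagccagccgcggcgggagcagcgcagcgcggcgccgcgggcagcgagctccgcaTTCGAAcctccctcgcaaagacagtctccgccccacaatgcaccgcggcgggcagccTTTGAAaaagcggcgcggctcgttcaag
RBL1 promoter: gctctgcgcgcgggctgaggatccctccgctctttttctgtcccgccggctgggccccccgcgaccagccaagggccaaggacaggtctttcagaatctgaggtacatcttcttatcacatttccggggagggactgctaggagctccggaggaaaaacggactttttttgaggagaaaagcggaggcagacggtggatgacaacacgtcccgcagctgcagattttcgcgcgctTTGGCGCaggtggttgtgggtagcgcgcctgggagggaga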

How the data were processed

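RNA of HuH-7 cells was measured on 12 Agilent arrays of 1 colour. The authors deposited, for each array, the output of Feature Extraction (version 10.7.3.1 in the file headers and in the submitters' processing notes), with spot and background intensities before normalization. They also deposited normalized log2 values, which the authors made with Edwards background correction and quantile normalization.

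Here the deposited mean and background intensities of gene spots without outlier flags were corrected by the Edwards method, turned to log2, quantile normalized with limma 3.58.1 in R 4.3.3 and averaged per probe, and the lowest correlation of an array with the authors' values was 0.999. A spot was detected when its flag says well above background. Probes detected on at least 2 of 4 arrays of some group were tested, 33467 of 41000. One model over the 3 groups and 12 arrays was fitted with lmFit and eBayes of limma, with two-sided tests, with Benjamini-Hochberg adjustment per comparison, an adjusted p limit of 0.05 and a log2 limit of 0.6. The brightest probe stands for a gene in the lists. In the shares over all genes, an entry without a gene symbol counts as a gene of its own. Precision is limited by there being 4 arrays a group, since arrays have no read depth.

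Named are all members with every probe, from each other list the 2 genes of largest change in each direction among those called at 42 µM, or of any size where none was, and CDKN1A, DYRK1A and RBBP4, and the 5 genes most like FOXM1 and MYBL2. CDK2 and CDK4 were named after their values were seen. The members and lists were chosen with earlier results of these data known. The procedure was run on simulated arrays whose noise was drawn separately for each probe and array. These hold no deviations shared by an array or a slide, so they do not test how such deviations affect the calls. Alternatives were normexp with an offset of 50, processed signals, scaling to the 75th percentile, the authors' values, other filters, slide and replicate blocks, only the groups compared, an intensity trend, array weights, no log2 limit or one of 1, and leaving out each array. Names were checked against RefSeq accessions of GRCh38.p14. Sequences and plots were handled with pandas 2.3.3, numpy 2.4.6 and matplotlib 3.10.9 under Python 3.11.15.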

Additional observations from a re-analysis of the deposited data

Results flagged for a closer look

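In 3 of 39 groups of 4 arrays, 1 array stood far from the other 3 for a member probe, by the ratio of its gap to the group's range against Dixon's critical value. Chance alone gives about 1 in 20 such groups. LIN52 on DMSO had the highest ratio, 0.895, where replicate 3 read 8.12 and the others 8.37 to 8.41. LIN37 at 42 µM had 0.838, where replicate 4 read 9.69 and the others 9.92 to 9.97. RBL1 probe A_23_P28733 on DMSO had 0.833, where replicate 1 read 6.95 and the others 7.33 to 7.41. The 3 values belong to 3 different arrays.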

How the results depend on the processing

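Of 1014 values of the member probes under 26 alternatives, 1007 kept their direction, or moved by less than the spread between arrays, and their side of the limits, 7 passed the limits that did not before, and 0 reversed. The number of member probes called at 42 µM was 0, and 1 with only the groups compared or with array weights, in both settings LIN9 probe A_32_P233304. It ranged from 0 to 1 when 1 array was left out. The replicate numbers are not known to pair the arrays, and the values leave this unsettled. The r of deviations between arrays of one number ran from −0.46 to 0.62, and 7 of 12 such pairs were above 0.1. Of the 12 arrays, 5 had their best match in another group under their own number. With the replicate number as a block 3 member probes were called at 42 µM, FOXM1 (adjusted p = 0.0145), MYBL2 (0.0190) and LIN9 (0.0208), and 1366 of all probes in place of 885, and at 28 µM 2 of all probes in place of 0. Over all probes, leaving out 1 array gave 0 to 1221 calls at 42 µM and 0 to 719 at 28 µM, and the slide block gave 1 at 42 µM. With arrays left out, the G2/M targets called at 42 µM ranged from 0 to 45 and the G1/S targets from 0 to 19, and at 28 µM from 0 to 29 and from 0 to 1, above 0 only without 28 µM replicate 4. The slide as a block gave 0 for both lists at 42 µM, and a log2 limit of 1 gave 5 G1/S targets. With the processed signal scaled to the 75th percentile RBBP4 at 42 µM turned from 0.04 to −0.12. The cause was not tested. The 4 arrays a group and the spread of FOXM1 and MYBL2 within groups limit what can be called.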
